A study of Homo sapiens and Mus musculus with 12 samples.

Results

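The NF-kB system was examined at the level of its own genes: 49 genes that encode the NF-kB subunits, the proteins that switch them on, the proteins that restrain them, and a few well known target genes. The members were chosen by symbol. Of the 49 human symbols, 46 were rows of the human count table of 18304 genes. TNFAIP2, IER3 and SOD2 were not analysed here in human cells. All 49 title-case symbols were rows of the mouse count table of 22021 genes. All 46 human and all 49 mouse members had enough counts to be tested. They were sorted by role into 5 groups. These were 3 canonical subunits, 19 canonical signalling genes, 7 genes of the non-canonical arm, 12 inhibitors and feedback genes, and 8 other target genes.

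The experiments were compared separately. In the first, the human NK cell line NK92MI, which makes its own IL-2, was treated with BIX-01294, a small-molecule inhibitor of the histone methyltransferase EHMT2, or with the solvent DMSO, with 3 RNA-seq libraries in each group. In the second, NK cells were sorted from spleens of C57BL/6J mice as CD3- NK1.1+ cells. WT mice carried Ehmt2 flox/flox without Cre, and KO mice carried Ehmt2 flox/flox together with iCre driven by Ncr1, which encodes the NK receptor NKp46. There were 3 libraries in each group, and deletion in KO mice is limited to cells that express Ncr1. The mice were matched for age and sex. The labels of the libraries do not give the dose or duration of BIX-01294. The paper gives both for NK92MI cells in its functional assays, but its legend for the RNA-seq does not repeat them. The genotype label of the KO libraries reads Ezh2-KO, whereas their titles name EHMT2, and the titles were followed here. The control columns of the human table are headed CON and numbered, but no label ties a column to 1 of the numbered DMSO samples, so their values are given as a group in column order.

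NF-kB proteins are dimers of 5 related subunits that wait in the cytoplasm bound to inhibitors. In the canonical route, receptor signals run through TRAF and RIPK adaptors, ubiquitin chains and the kinase TAK1 to the IKK complex, which marks the inhibitor IkBa for destruction and releases dimers such as p50 with RelA. In the slower non-canonical route, the kinase NIK accumulates and drives processing of p100, the NFKB2 product, to p52, which works with RelB. Several inhibitor genes, NFKBIA and TNFAIP3 among them, are themselves NF-kB targets and form feedback loops, and in NK cells the pathway acts downstream of IL-18, TNF family and activating receptors.

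Library totals were 16579469 to 17165446 counts in NK92MI cells and 25891680 to 37438868 in mouse NK cells, the lowest being WT replicate 2. Levels are TMM-normalized CPM, counts scaled to library size,, and tests are edgeR's quasi-likelihood test with Benjamini-Hochberg adjustment over 12727 human and 13189 mouse genes. The biological coefficient of variation was 7.55% in human and 18.2% in mouse libraries. The call rule asked for a log2 fold change beyond 0.5 in either direction and for an adjusted p under 0.01. With 3 against 3 libraries an exact two-sided permutation test of a single gene cannot give less than p = 0.1. The sources used here do not say whether the NK92MI libraries came from separate cultures. Nor do they say whether each mouse library came from a single mouse or a pool. The p-values therefore measure the spread between these libraries, which may be technical. EHMT2 mRNA itself was counted at 57.1, 61.6 and 54.3 CPM in DMSO libraries and at 40.4, 39.3 and 35.8 CPM in BIX-01294 libraries, a log2 fold change of −0.58 (standard error, SE, 0.08, adjusted p = 0.000101 by edgeR). EHMT1, which encodes the partner enzyme, changed by a log2 value of −0.17 and did not pass (adjusted p = 0.0664 by edgeR). Mouse Ehmt2 was at 275, 284 and 285 CPM in WT and at 171, 143 and 137 CPM in KO, and the position of the remaining reads relative to the deleted part cannot be read from gene totals. Its log2 fold change was −0.91 (SE 0.10, adjusted p = 0.0162 by edgeR), while that of Ezh2 was −0.23 (adjusted p = 0.116 by edgeR).

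All 12 NK cell marker genes of the list used were detected in NK92MI cells, and MS4A1, CD14 and CD4 stayed under 1 CPM in every human library. Other genes of the human lists were counted. The B cell list summed to 17.5 to 20.1 CPM in DMSO and 28.6 to 32.3 CPM in BIX-01294 libraries, with 3 of 3 tested genes above 0 and 1 called. The macrophage list summed to 2.05 to 3.49 and 4.13 to 5.11 CPM, and the T cell list to 97.1 to 100 and 91.0 to 108 CPM. The summed level of the human NK list was 6486 to 6989 CPM in DMSO and 8174 to 10300 CPM in BIX-01294 libraries. In the mouse libraries all 12 NK markers had a fold change above 0 in KO, with sums of 5539 to 9352 CPM in WT and 10480 to 12300 CPM in KO. Markers of other cells were present in the sorted mouse samples, and most lists were lower in KO. All 10 B cell markers were lower in KO (sums 571 to 1639 CPM in WT, 98.4 to 536 CPM in KO), as were all 10 macrophage and monocyte markers (2630 to 6849 CPM against 1404 to 2556 CPM), all 10 dendritic cell markers (590 to 899 CPM against 244 to 466 CPM) and all 9 tested neutrophil markers (100 to 954 CPM against 15 to 107 CPM). All 8 erythroid and all 6 platelet markers were lower as well. T cell markers were mixed, with 6 of 10 below 0, 1 called higher at 0.05, none called lower, and sums of 570 to 667 CPM in WT and 665 to 671 CPM in KO. Among the WT libraries, replicate 2 stood apart with the lowest macrophage sum, 2630 CPM, and the highest NK sum, 9352 CPM. In bulk RNA, fewer cells of a type and less RNA per cell cannot be told apart.

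The kappa B sequence is the DNA element that NF-kB dimers bind, and it is shown here for the genes on which the results below turn. Promoters of 250 bases before to 50 bases after the transcription start, from the RefSeq table on GRCh38.p14, were searched on both strands for the kappa B consensus, and overlapping matches were counted as 1 place. A promoter was given for 42 of the 49 human members, and 18 of them (42.9%) held at least 1 place. Over all genes of the table the share was 13.3% (3619 of 27305), and over all promoters 11.3%. The share differed by role. It was 9 of 11 for inhibitors and feedback genes, 3 of 6 in the non-canonical arm, 2 of 3 for the canonical subunits, 2 of 7 for other target genes and 2 of 15 for canonical signalling genes. RELB, NFKBIE, IKBKB, TRADD, SHARPIN, RIPK2 and IER3 had no entry. Each stretch below is read 5′ to 3′ on the gene's own strand, with the matching bases in capitals. The first 4 belong to feedback and non-canonical genes that rose in BIX-01294, and the last is NFKB1, which stayed below the fold limit. In GENCODE v44 the BIRC3 and NFKBIA stretches hold no exon, whereas those of TNFAIP3 and NFKB1 reach a few bases into the first exon of the gene. The NFKBIB stretch lies wholly past the annotated gene start at chr19:38899700, before a later RefSeq start.

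TNFAIP3, chr6:137867177-137867228, plus strand, 2 places from 67 and 55 bases before the start: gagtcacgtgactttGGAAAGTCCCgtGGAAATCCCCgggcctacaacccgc
BIRC3, chr11:102317270-102317373, plus strand, 2 places: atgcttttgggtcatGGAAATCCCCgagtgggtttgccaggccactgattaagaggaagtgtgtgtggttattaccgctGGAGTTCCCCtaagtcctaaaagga
NFKBIA, chr14:35404806-35404845, minus strand: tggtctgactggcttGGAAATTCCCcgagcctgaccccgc
NFKBIB, chr19:38899926-38899966, plus strand: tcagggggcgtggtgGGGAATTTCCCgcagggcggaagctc
NFKB1, chr4:102501295-102501334, plus strand: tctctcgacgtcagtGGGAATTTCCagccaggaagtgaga

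In NK92MI cells treated with BIX-01294, 3 of 7 genes of the non-canonical arm, 7 of 12 inhibitors and feedback genes and 4 of 5 target genes rose, while 1 of 19 canonical signalling genes rose and 2 fell. In all, the call rule was passed by 15 of 46 members upwards and by 2 downwards. Among all genes tested the shares were 6.24% upwards and 5.43% downwards. The members were chosen with earlier results of these data known, so this contrast is a description and was not tested. The median log2 fold change of the members was 0.31, and that of all genes was −0.01. When an adjusted p under 0.01 was asked for without a fold limit, 21 members were higher and 5 lower by edgeR, where 12.3% and 11.3% of all genes were. In 27 members every BIX-01294 library lay above every DMSO library, and in 9 every one lay below, against 24.1% and 23.9% of all genes. The plot of fold changes by role sets the human values beside the mouse values.

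**Figure D1:**
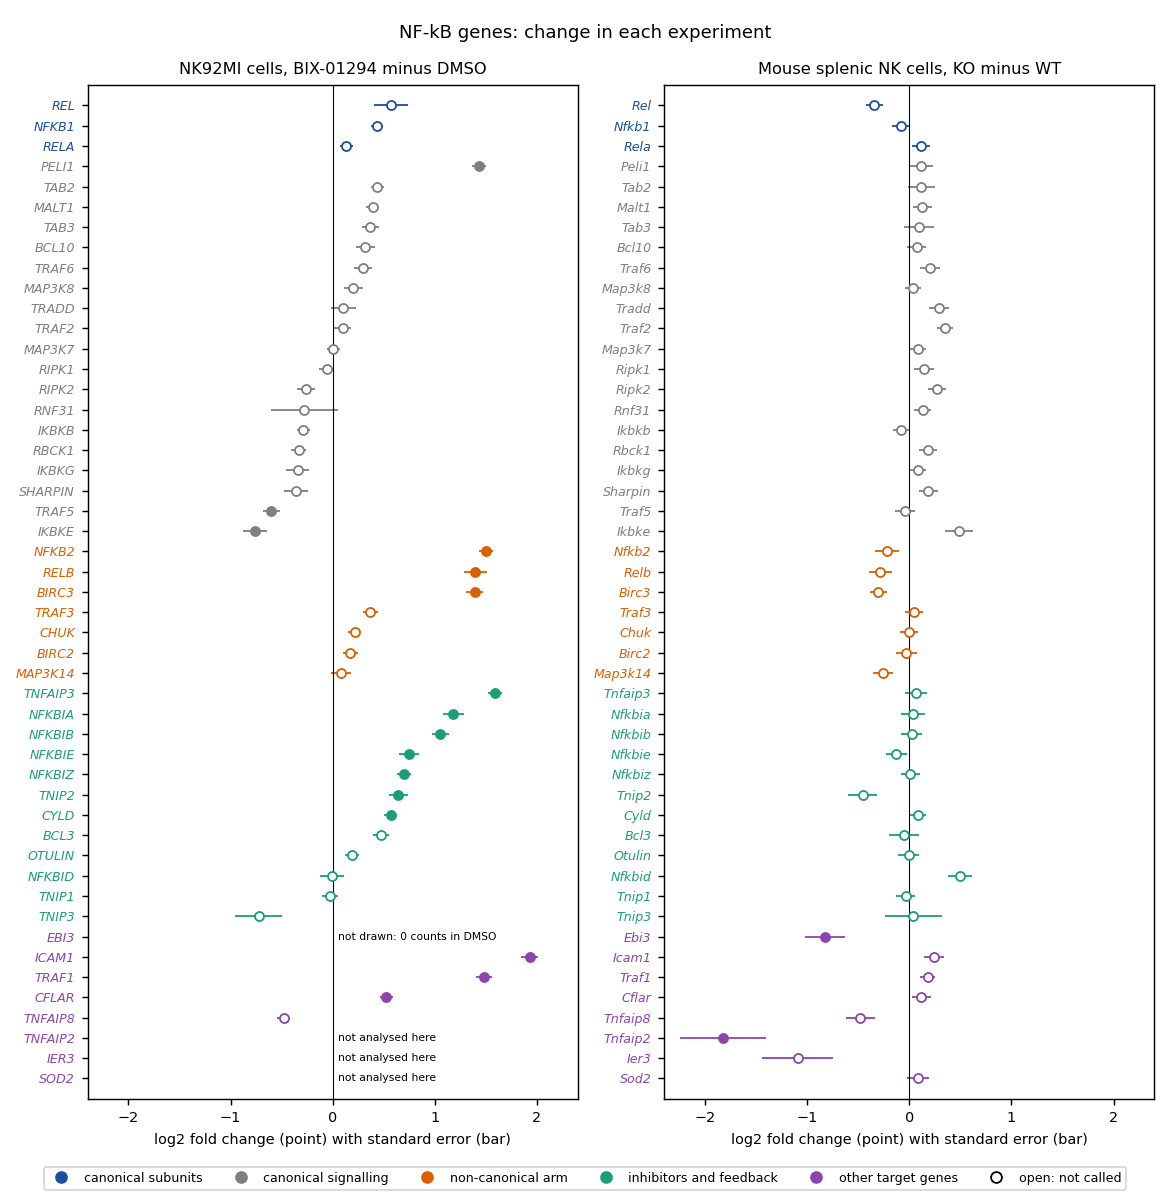
Log2 fold change of each NF-kB gene on the x axis, with its SE as a bar, for BIX-01294 minus DMSO in NK92MI cells (left) and KO minus WT in mouse NK cells (right), coloured by role. Filled points were called (human adjusted p under 0.01, mouse under 0.05, |log2 fold change| over 0.5). The left panel has 14 filled points above 0 and 2 below, beside EBI3, which had no DMSO counts and is not drawn, and the right panel has 2, Tnfaip2 and Ebi3, both below 0.

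Among the 5 subunit genes, the 2 that belong to the non-canonical route were called higher and none of the 3 canonical ones was called. These are mRNA levels, and the activity of either route was not measured. Promoters of NFKB2 held kappa B places, and RELB had no promoter entry. NFKB2, which encodes p100 and its product p52, lies at chr10:102394110-102402524. It was at 73.9, 81.5 and 72.4 CPM in DMSO libraries and at 211, 209 and 225 CPM in BIX-01294 libraries. The groups were far apart, and the mean level was 2.83 times as high with the inhibitor. The log2 fold change was 1.5 (SE 0.07, adjusted p = 5.98e-09 by edgeR). RELB, the partner of p52, lies at chr19:45001461-45038192. Its level was 21.4, 25.1 and 21.2 CPM in DMSO and 56.5, 52.1 and 69.1 CPM with BIX-01294, again with no overlap (log2 fold change 1.39, SE 0.11, adjusted p = 7.89e-07 by edgeR).

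NFKB1 encodes p105 and p50, the usual partner of RelA. It was counted at 186, 188 and 188 CPM in DMSO and at 249, 258 and 250 CPM with BIX-01294. Its groups were tight and did not overlap, but the log2 fold change of 0.43 (SE 0.06, adjusted p = 7.04e-05 by edgeR) stayed below the fold limit. REL, the subunit c-Rel of lymphoid cells, was at 30.1, 26.0 and 27.2 CPM in DMSO and at 42.3, 52.8 and 28.6 CPM with BIX-01294. The lowest BIX-01294 library fell inside the DMSO range, and the log2 fold change of 0.57 (SE 0.16, adjusted p = 0.0143 by edgeR) did not pass. In the annotation used, 33.3% of REL exon sequence is shared with another gene on the same strand. RELA, the transactivating subunit p65, was at 88.2, 93.8 and 85.9 CPM in DMSO and at 102, 92.6 and 99.9 CPM with BIX-01294, with overlapping groups (log2 fold change 0.13, SE 0.07, adjusted p = 0.138 by edgeR).

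Scaled per kilobase of annotated exon, the order of the subunits in DMSO libraries was RELA at 16.4 CPM per kb, NFKB2 at 13.6, NFKB1 at 11.9, RELB at 7.52 and REL at 1.62. No neighbours in this order overlapped over the 3 DMSO libraries, whose ranges were 15.7 to 17.2 for RELA, 13.0 to 14.6 for NFKB2 and 11.8 to 12 for NFKB1. With BIX-01294, NFKB2 stood first at 38.5 CPM per kb, ahead of RELB at 19.8, RELA at 18.0, NFKB1 at 16.1 and REL at 2.41. The lengths join the exons of all annotated transcripts, so the order between genes depends on that annotation.

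**Figure D2:**
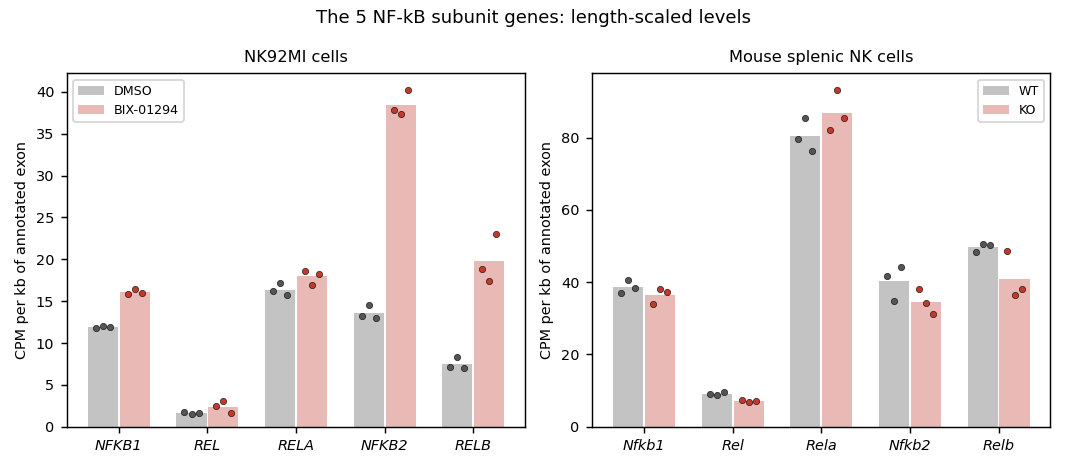
Level of the 5 NF-kB subunit genes in CPM per kb of annotated exon (y axis) in NK92MI cells with DMSO or BIX-01294 and in WT or KO mouse NK cells. Bars are means and points are the 3 libraries of each group. NFKB2 rises from 13.6 to 38.5 and RELB from 7.52 to 19.8 in NK92MI cells, while Rela is the highest and Rel the lowest of the mouse genes in both genotypes.

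The remaining non-canonical genes separated into 1 that rose and 4 that were not called. BIRC3, which encodes the ubiquitin ligase cIAP2 that keeps NIK low and is itself a target of the pathway, was at 144, 127 and 153 CPM in DMSO and at 383, 397 and 331 CPM with BIX-01294. Every treated library was above every control library (log2 fold change 1.39, SE 0.08, adjusted p = 7.51e-08 by edgeR). MAP3K14, the gene of NIK, was at 26.8, 26.5 and 23.7 CPM in DMSO and at 25.2, 28.5 and 27.7 CPM with BIX-01294 (log2 fold change 0.08, adjusted p = 0.545 by edgeR). The groups overlapped for this kinase, on whose protein level the non-canonical route depends. The fold changes of CHUK (the kinase IKKa), BIRC2 (cIAP1) and TRAF3 (the adaptor that marks NIK for destruction) were 0.22, 0.17 and 0.37 on the log2 scale. Of these, TRAF3 had an adjusted p of 0.00119 by edgeR without reaching the fold limit. The median of the 7 genes was 0.37, with 7 of 7 above 0, where 6236 of all 12727 genes tested were above 0.

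Of the 12 inhibitors and feedback genes, 7 rose, none fell by the call rule, and the median log2 fold change was 0.60. TNFAIP3 encodes A20, which edits ubiquitin chains and shuts down signals to IKK, and lies at chr6:137867214-137883314. It was at 41.6, 39.8 and 41.9 CPM in DMSO and at 122, 125 and 123 CPM with BIX-01294, with little spread in either group (SD 1.11 in both). Its log2 fold change was 1.59 (SE 0.07, adjusted p = 3.37e-09 by edgeR). NFKBIA, the gene of IkBa at chr14:35401079-35404749, was at 121, 130 and 135 CPM in DMSO and at 313, 234 and 328 CPM with BIX-01294. The middle BIX-01294 library lay lower than the rest but still well above the DMSO libraries (log2 fold change 1.18, SE 0.10, adjusted p = 1.91e-06 by edgeR). NFKBIB, the gene of IkBb, was at 82.5, 89.3 and 79.3 CPM in DMSO and at 169, 157 and 196 CPM with BIX-01294, without overlap (log2 fold change 1.05, SE 0.08, adjusted p = 7.89e-07 by edgeR).

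NFKBIE and NFKBIZ, which encode IkBe and the nuclear cofactor IkBz, rose by less. NFKBIE was at 14.5, 15 and 16.4 CPM in DMSO and at 27.2, 24.1 and 25.8 CPM with BIX-01294 (log2 fold change 0.75, SE 0.10, adjusted p = 6.96e-05 by edgeR). NFKBIZ was at 56.2, 54.0 and 62.1 CPM in DMSO and at 94.1, 93.0 and 92.5 CPM with BIX-01294 (log2 fold change 0.70, SE 0.07, adjusted p = 7.17e-06 by edgeR). Neither gene had overlapping groups. TNIP2 (ABIN2, which binds A20 and p105) and CYLD (a deubiquitinase that opposes TRAF signals) rose by log2 values of 0.64 and 0.57. BCL3, a nuclear IkB protein that works with p50 and p52, had a log2 fold change of 0.47 (adjusted p = 0.000349 by edgeR) and so missed the fold limit only. The other 4 genes of the group did not pass. OTULIN, a linear-chain deubiquitinase, was at 0.19, and the nuclear IkB gene NFKBID and the A20 partner TNIP1 were at −0.01 and −0.03. TNIP3, at 3.91 to 6.29 CPM in DMSO, was at −0.73 (adjusted p = 0.0255 by edgeR).

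Among the target genes in the human table, 4 of 5 rose. ICAM1, the adhesion ligand of LFA-1, had the largest fold change of the members that had counts in both groups. It was at 35.2, 41.3 and 34.5 CPM in DMSO and at 148, 132 and 144 CPM with BIX-01294 (log2 fold change 1.93, SE 0.08, adjusted p = 3.37e-09 by edgeR). The mean was 3.81 times as high, and the annotation gives 25.4% of its exon sequence as shared with genes on the opposite strand. TRAF1, an adaptor that binds cIAP proteins, was at 58.1, 56.3 and 51.4 CPM in DMSO and at 153, 141 and 169 CPM with BIX-01294 (log2 fold change 1.48, SE 0.08, adjusted p = 2.46e-08 by edgeR). CFLAR, the gene of the caspase-8 inhibitor c-FLIP, was already high in DMSO at 235 to 250 CPM and rose to 324 to 370 CPM, a log2 fold change of 0.53 that lies just above the limit. TNFAIP8 had a log2 fold change of −0.48 (adjusted p = 9.02e-05 by edgeR), short of the fold limit.

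EBI3, which encodes the beta chain shared by IL-27 and IL-35, had no counts in any DMSO library and 44 counts in the 3 BIX-01294 libraries together, or 0.79, 0.59 and 1.24 CPM. Against a floor of 3 counts over the DMSO group it was at least 14.9-fold higher, and it was called (adjusted p = 0.000358 by edgeR). It remained a gene of very low level, and it drops out of the test when a mean of at least 1 CPM is asked for.

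**Figure D3:**
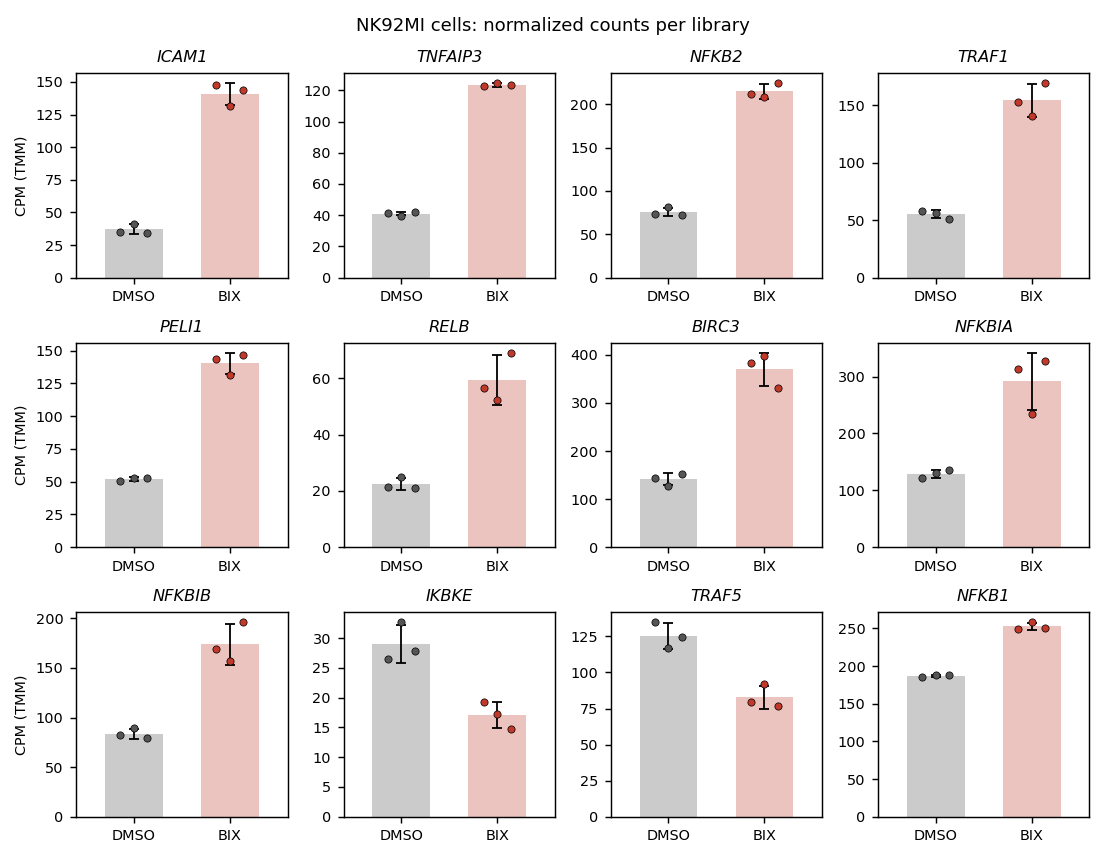
TMM-normalized counts (CPM, y axis, from 0) of 12 NF-kB genes in DMSO and BIX-01294 libraries of NK92MI cells. Bars are means, error bars are SD, and points are the 3 libraries. The groups do not overlap in any panel, with 10 genes higher and IKBKE and TRAF5 lower in BIX-01294.

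The 19 canonical signalling genes were centred on no change, with log2 fold changes from −0.76 to 1.43 around a median of 0.00. Only PELI1 rose by the call rule. It encodes Pellino-1, a ubiquitin ligase of the Toll-like and IL-1 receptor pathways, and was at 50.5, 52.6 and 52.9 CPM in DMSO and at 144, 131 and 146 CPM with BIX-01294. The groups were far apart, and the size lay between those of RELB and NFKB2 (log2 fold change 1.43, SE 0.07, adjusted p = 1.04e-08 by edgeR). IKBKE and TRAF5 fell. IKBKE, an inducible IKK-related kinase, was at 26.5, 32.7 and 27.8 CPM in DMSO and at 19.2, 17.2 and 14.8 CPM with BIX-01294 (log2 fold change −0.76, SE 0.12, adjusted p = 0.000215 by edgeR). TRAF5, an adaptor of TNF family receptors, was at 135, 117 and 125 CPM in DMSO and at 79.6, 91.8 and 76.8 CPM with BIX-01294 (log2 fold change −0.60, SE 0.08, adjusted p = 7.09e-05 by edgeR). Both had separate groups.

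The other 16 signalling genes lay between −0.36 and 0.44 on the log2 scale. The TAK1-binding genes TAB2 (0.44) and TAB3 (0.37) and the paracaspase gene MALT1 (0.39) had an adjusted p under 0.01 by edgeR in the upward direction. IKBKB, the main canonical IKK kinase (−0.29), and RBCK1, the HOIL-1 subunit of the linear ubiquitin ligase complex (−0.33), did so downwards. TAB3, IKBKB and RBCK1 lost an adjusted p under 0.01 by edgeR without any 1 of the control libraries or without BIX replicate 1, with values up to 0.0232, 0.0318 and 0.0173. MAP3K7, the gene of TAK1, was at 0.00, RIPK1 at −0.06 and TRAF2 at 0.10, and none of these passed. RNF31, the catalytic subunit of the same ligase complex, was counted at 0.99 to 1.63 CPM in DMSO libraries. The annotation gives 56.2% of its exon sequence as shared with other genes, so its human level is uncertain.

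Of the 15 members called higher, 13 had a promoter in the table and 9 of these held a kappa B place. Among the other tested members with a promoter the count was 9 of 27. PELI1, ICAM1, TRAF1 and TNIP2 rose without a match in the window searched, and NFKBID and TNIP1 had a match and a log2 change near 0. TNIP3 had a match and a log2 fold change of −0.73 (adjusted p = 0.0255 by edgeR). These counts describe letters in a window and were not tested.

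In mouse NK cells no member was called at an adjusted p under 0.01 by edgeR, and neither was any other gene (0% of all genes higher and 0% lower). At an unadjusted p under 0.05, 7 members were higher and 9 lower in KO, against 15.8% and 20% of all genes, so these counts were near the background. Limma-voom called no member at these thresholds either. DESeq2, the tool the study used, called 3 members at the same thresholds, all lower in KO, namely Ebi3, Ier3 and Tnfaip2, where it called 3% of all genes upwards and 8.33% downwards. At 0.05 with the same fold limit, edgeR called no member higher and 2 lower, against 2.82% and 6.69% of all genes. Without the fold limit 2 members were higher and 3 lower, against 4.44% and 7.43% of all genes. The median log2 fold change of the 49 members was 0.05, and that of all genes 0.01. Groups did not overlap for 9 members that were higher and 7 that were lower, against 19.1% and 19.3% of all genes.

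The 2 mouse genes called at 0.05 were target genes. Tnfaip2, which encodes a protein of membrane tubes made in myeloid and endothelial cells, lies at chr12:111442469-111455018 of GRCm38. It was at 91.8, 36.4 and 119 CPM in WT replicates 1 to 3 and at 32.4, 18.2 and 19.3 CPM in KO replicates 1 to 3. The groups did not overlap, but WT replicate 2 lay close to KO replicate 1. The log2 fold change was −1.83 (SE 0.42, adjusted p = 0.0413 by edgeR). Ebi3, at chr17:55952640-55957022, was at 41.7, 30.2 and 41.1 CPM in WT and at 27.3, 19.0 and 17.4 CPM in KO, again with WT replicate 2 next to KO replicate 1. Its log2 fold change was −0.83 (SE 0.20, adjusted p = 0.0437 by edgeR), and 23.4% of its annotated exon sequence is shared with a gene on the opposite strand.

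Both calls were lost without any 1 of 4 libraries. Without WT replicate 1, WT replicate 3, KO replicate 2 or KO replicate 3 in turn, neither Tnfaip2 nor Ebi3 passed 0.05, with adjusted p by edgeR up to 0.157 and 0.160. Without WT replicate 2, the log2 fold change of Tnfaip2 was −2.18 (adjusted p = 0.00247 by edgeR) and that of Ebi3 was −0.96 (adjusted p = 0.0108 by edgeR). In that fit Tnfaip2 was called lower and Ikbke higher at 0.01, where 3.11% of all genes were called higher and 5.56% lower. The macrophage marker sum was 6849, 2630 and 5067 CPM in WT and 2556, 1404 and 1958 CPM in KO. The NK sum was 5539, 9352 and 5793 CPM in WT and 10480, 12300 and 12110 CPM in KO. The part of these other cells in the lower Tnfaip2 and Ebi3 counts was not tested.

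**Figure D4:**
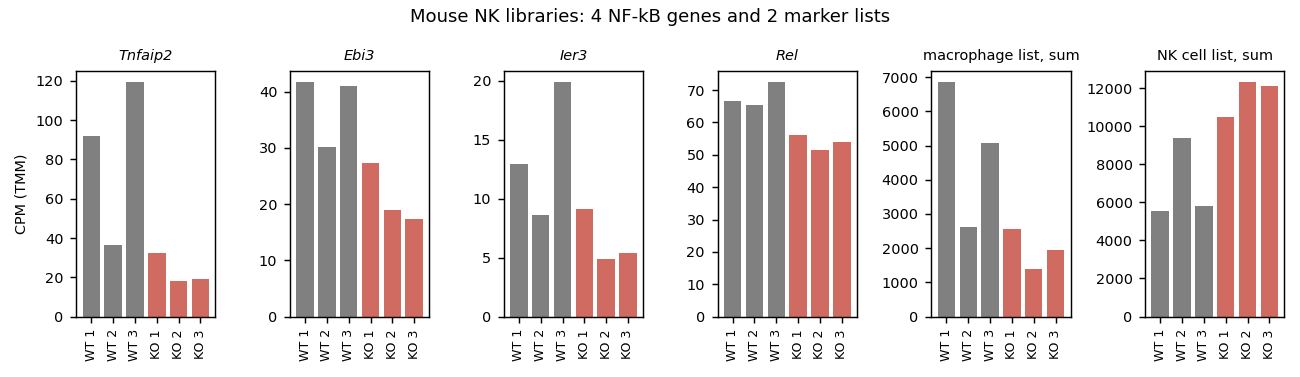
TMM-normalized counts (CPM, y axis, from 0) in each mouse library for Tnfaip2, Ebi3, Ier3 and Rel and for the summed macrophage and NK cell marker lists. WT replicates are grey and KO replicates red. WT replicate 2 is the lowest WT library for Tnfaip2, Ebi3, Ier3 and the macrophage list and the highest for the NK list, and Rel is lower in each KO library than in each WT library.

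Of the mouse subunits, Rel alone passed 0.05 with all libraries. Rel was at 66.7, 65.5 and 72.4 CPM in WT and at 56.3, 51.4 and 53.9 CPM in KO. Every KO library was below every WT library, by a small amount (log2 fold change −0.34, SE 0.08, adjusted p = 0.0449 by edgeR). It did not pass without WT replicate 1, WT replicate 3, KO replicate 2 or KO replicate 3, with an adjusted p by edgeR from 0.109 to 0.161. Groups were separate in this direction for 19.3% of all genes. The lower B cell, macrophage and dendritic cell marker sums in KO stand beside the Rel values, and their part was not tested. Nfkb1 was at 447, 488 and 464 CPM in WT and at 411, 460 and 451 CPM in KO (log2 fold change −0.08, SE 0.09, adjusted p = 0.533 by edgeR). Rela was at 244, 262 and 234 CPM in WT and at 252, 286 and 262 CPM in KO (log2 fold change 0.11, SE 0.09, adjusted p = 0.390 by edgeR). Both had overlapping groups. Nfkb2 was at 192, 160 and 202 CPM in WT and at 175, 157 and 143 CPM in KO (log2 fold change −0.22, SE 0.12, adjusted p = 0.210 by edgeR). Relb was at 188, 197 and 196 CPM in WT and at 188, 142 and 148 CPM in KO (log2 fold change −0.28, SE 0.12, adjusted p = 0.129 by edgeR). For both non-canonical subunits KO replicate 1 reached into the WT range. Without KO replicate 1, the log2 fold change of Relb was −0.43 and passed 0.05 (adjusted p = 0.0308 by edgeR). KO replicate 1 also had the highest B cell, macrophage, dendritic cell and neutrophil marker sums of the KO libraries. Its B cell sum was 536 CPM, beside 112 and 98.4 CPM in KO replicates 2 and 3. The part of these other cells in the Nfkb2 and Relb values was not tested.

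Per kilobase of exon, Rela led in WT NK cells at 80.4 CPM per kb, followed by Relb at 49.8, Nfkb2 at 40.2, Nfkb1 at 38.7 and Rel at 9.13. Relb (48.4 to 50.7) lay above Nfkb2 (34.8 to 44.1) in every WT library, while Nfkb2 and Nfkb1 (37.0 to 40.5) overlapped. Rel was the lowest of the 5 genes in both species on this scale.

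In the edgeR fit used throughout, no gene of the mouse non-canonical arm passed 0.05. Over its 7 genes, Nfkb2 and Relb included, the median log2 fold change was −0.22 and 6 were below 0, with Birc3 at −0.30 (adjusted p = 0.0507 by edgeR), Map3k14 at −0.26 (adjusted p = 0.10 by edgeR), Birc2 at −0.03, Traf3 at 0.05 and Chuk just below 0. Birc3 was at 147, 145 and 160 CPM in WT and at 130, 118 and 119 CPM in KO, so its groups did not overlap. Birc3 passed 0.05 with DESeq2 (adjusted p = 0.0124). By edgeR it passed with the replicate block (adjusted p = 0.0341), DESeq2's size factors (0.048) or a mean CPM of at least 1 (0.0476). It also passed without WT replicate 2 (0.0374) or KO replicate 1 (0.0426). Without any 1 of the other libraries it did not pass (adjusted p by edgeR from 0.119 to 0.179). The lower B cell, macrophage and dendritic cell marker sums in KO stand beside these values, and their part was not tested. Among all 13189 mouse genes tested, 6797 were above 0 and 6392 below. Of the canonical signalling genes, 17 of 19 were above 0, with a median of 0.13. Traf2, the adaptor that joins TNF receptors to cIAP proteins, was the one with an adjusted p under 0.05 by edgeR with all libraries. It was at 60.6, 66.3 and 61.9 CPM in WT and at 81.1, 81.0 and 78.5 CPM in KO (log2 fold change 0.35, SE 0.08, adjusted p = 0.0387 by edgeR). It did not pass without WT replicate 1, WT replicate 3, KO replicate 2 or KO replicate 3 (adjusted p by edgeR from 0.109 to 0.150). Ikbke was at 57.7, 79.9 and 62.3 CPM in WT and at 86.3, 103 and 91.2 CPM in KO, with a log2 fold change of 0.49 (adjusted p = 0.0544 by edgeR). It passed 0.05 with DESeq2 (adjusted p = 0.0111), limma-voom (adjusted p = 0.0497) and edgeR without a filter (adjusted p = 0.0464) or with the replicate block (adjusted p = 0.00949). Without any 1 library other than WT replicate 2, Ikbke did not pass 0.05 (adjusted p by edgeR from 0.0548 to 0.179). It also did not pass by edgeR with DESeq2's size factors (adjusted p = 0.0559) or library totals only (adjusted p = 0.0507). The higher NK marker sums in KO stand beside the values of the signalling genes, and their part was not tested.

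The mouse inhibitors had a median log2 fold change of 0.02, and 1 of the 12 passed 0.05. Nfkbid, which encodes the nuclear protein IkBNS, was at 56.7, 62.9 and 71.3 CPM in WT and at 97.7, 92.1 and 79.0 CPM in KO. The groups did not overlap (log2 fold change 0.49, SE 0.12, adjusted p = 0.0433 by edgeR), and the change fell just short of the fold limit. Without any 1 library other than WT replicate 2, Nfkbid did not pass 0.05 (adjusted p by edgeR from 0.0618 to 0.157). The higher NK marker sums in KO stand beside the Nfkbid values too, and their part was not tested. Nfkbia was at 220, 196 and 214 CPM in WT and at 253, 192 and 203 CPM in KO (log2 fold change 0.04, SE 0.12, adjusted p = 0.829 by edgeR). Tnfaip3 was at 88.8, 111 and 89.2 CPM in WT and at 94.6, 104 and 104 CPM in KO (log2 fold change 0.07, SE 0.11, adjusted p = 0.674 by edgeR). Both feedback genes overlapped between genotypes. The other 9 lay between −0.46 (Tnip2, adjusted p = 0.0661 by edgeR) and 0.08. Of the remaining target genes, Ier3 was at 12.9, 8.61 and 19.9 CPM in WT and at 9.16, 4.88 and 5.43 CPM in KO, with overlapping groups (log2 fold change −1.09, SE 0.35, adjusted p = 0.0713 by edgeR). Tnfaip8 was at −0.48, and Traf1, Icam1, Cflar and Sod2 were between 0.08 and 0.24, none of which passed.

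The experiments differ in species, cell source, and loss against inhibition of the enzyme, and they share no control libraries. Of the 15 members called higher in NK92MI cells, 9 had a mouse log2 fold change above 0 and 6 below, with a median of 0.03 and a range from −0.83 to 0.24. Of these 15, Ebi3 alone had an adjusted p under 0.05 by edgeR in mouse, and it was lower. The difference between the experiments was not tested. NFKB2, RELB and BIRC3 had log2 fold changes of 1.5, 1.39 and 1.39 in NK92MI cells beside −0.22, −0.28 and −0.30 in mouse KO NK cells. ICAM1 was at 1.93 beside 0.24, TNFAIP3 at 1.59 beside 0.07 and NFKBIA at 1.18 beside 0.04. IKBKE was at −0.76 beside 0.49. Over the members in both tables other than EBI3, the SD of the log2 fold changes was 0.66 in NK92MI cells and 0.21 in mouse cells. Over all members tested, a |log2 fold change| over 0.5 was seen for 19 of 46 in human and 3 of 49 in mouse. The 3 mouse genes were Tnfaip2, Ier3 and Ebi3, none of which is in the set used for the SD.

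**Figure D5:**
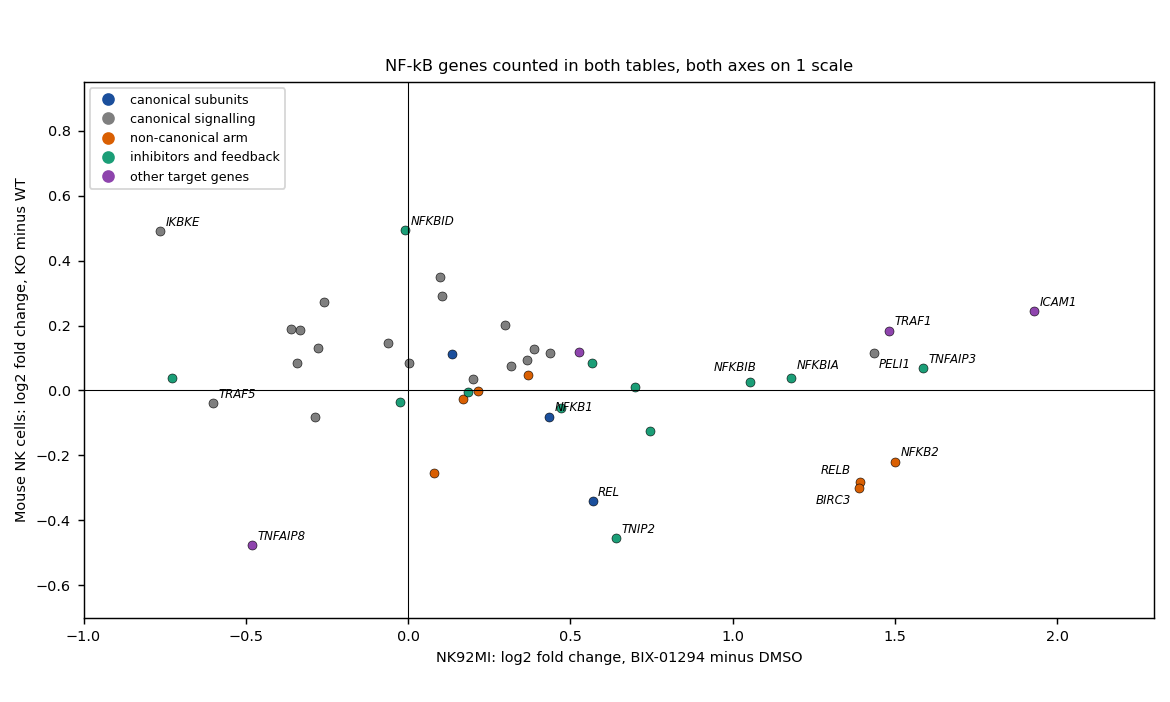
Log2 fold change of each NF-kB gene in NK92MI cells (x axis, BIX-01294 minus DMSO) against that of the same symbol in mouse NK cells (y axis, KO minus WT), coloured by role, with both axes on the same scale and EBI3 not drawn. The points spread along the x axis, with an SD of 0.66, more than along the y axis, with an SD of 0.21, and NFKB2, RELB and BIRC3 lie to the right and below 0.

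Genes of the pathway outside the members, a list of 68 ligands, receptors, adaptors and other regulators, were read in the same fits. In NK92MI cells 51 were tested, of which 7 rose and 3 fell, where 6.24% of all genes were called higher and 5.43% lower. Those with small adjusted p included TANK, a TRAF-binding regulator (log2 fold change 0.79, adjusted p = 6.25e-07 by edgeR), TRAF4 (1.14, adjusted p = 1.15e-06), PDLIM2, a ligase that ends RelA activity in the nucleus (−0.88, adjusted p = 7.07e-06) and IL18RAP, a chain of the IL-18 receptor (0.92, adjusted p = 1.05e-05). In mouse NK cells all 68 were tested and none was called at 0.01. At 0.05 no gene was higher and 5 of 68 were lower in KO, a share near the 6.69% of all genes called lower. These were the Toll-like receptor genes Tlr9 (−1.12, adjusted p = 0.0181 by edgeR), Tlr8 (−1.23) and Tlr6 (−0.88), the IRAK family inhibitor Irak3 (−0.82) and the lymphotoxin beta receptor gene Ltbr (−1.13). The last, a receptor that feeds the non-canonical route, was at 52.6 ± 17.6 CPM (SD, n = 3) in WT and 24.1 ± 7.26 CPM (SD, n = 3) in KO. The lower B cell, macrophage and dendritic cell marker sums stand beside these values too, and their part was not tested.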

How the data were processed

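RNA-seq counts of NK92MI cells (3 DMSO, 3 BIX-01294) and of sorted mouse splenic NK cells (3 WT, 3 KO) were used. The authors trimmed reads with fastp 0.23.4, aligned them with STAR 2.7.11b, allowing 2 mismatches, to GRCh38/hg38 or GRCm38/mm10, and counted them with HTSeq 2.0.3. The values, as deposited, are raw counts per gene symbol. The annotation release and strand setting are not given in the sources used here, so reads of overlapping genes cannot be assigned with certainty.

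From these, edgeR 4.0.16 in R 4.3.3 gave TMM-normalized CPM and quasi-likelihood tests per species after filterByExpr, with Benjamini-Hochberg adjustment over all genes tested. The adjusted p of 0.01 and |log2 fold change| of 0.5 are the study's thresholds, and 0.05 was added for mouse. Positions and exon lengths come from GENCODE annotations of the same builds, not shown to be the authors' release. The procedure was tested on simulated data. Alternatives were DESeq2 1.42.0, limma 3.58.1 (voom), other scalings, filters and thresholds, the replicate number as a block, and each library left out. The members and lists were chosen with earlier results of these data known. Values are given in full for the subunits, NFKBIA, TNFAIP3 and the called members (in human those with the largest fold change), and for others by count and range. NFKBIZ, TRAF5, Traf2, Nfkbid, Ikbke, Birc3, Ier3 and MAP3K14 were added to these after their values were seen. The depth of each library is ample for all but the genes with few counts. Of the other pathway genes and marker genes, some named by the rule are not reported here.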

Additional observations from a re-analysis of the deposited data

How the results depend on the processing

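In NK92MI cells the 17 called members were all called again with DESeq2, limma-voom, DESeq2's size factors and library totals only. EBI3 was lost at a mean CPM of at least 1, and CFLAR, with a log2 fold change of 0.49, without BIX replicate 2. With no fold change threshold 26 members and 3010 genes passed, and with |log2 fold change| over 1, 10 members and 427 genes (19 and 2 other pathway genes). REL lay between 0.35 and 0.78 over the alternatives and was called with no filter and without BIX replicate 3.

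In mouse the count of genes at 0.01 was 0 by edgeR, 34 with no filter, 1495 with DESeq2, 3 with limma-voom and, with replicates left out in turn, 0 to 1163, the highest without WT replicate 2. At 0.05 it was 1254 by edgeR, 2209 with DESeq2, 584 with |log2 fold change| over 1, and 0 to 2740 with replicates left out (0 without KO replicate 2 or 3, 99 without WT replicate 1, 14 without WT replicate 3 and 2740 without WT replicate 2). Members numbered 3 with DESeq2 at 0.01 and 0 to 2 with replicates left out. At 0.05 they numbered 5 with no fold change threshold, 1 with |log2 fold change| over 1, and 0 to 6 with replicates left out, the 6 without WT replicate 2 and 5 without KO replicate 1. The log2 fold change of Nfkbia, 0.04, turned to −0.0036 without WT replicate 2 and to −0.096 without KO replicate 1, and reached 0.12 in the other direction. Other pathway genes at 0.05, 5 in number, became 3 with library totals only, 10 with no filter, 17 with DESeq2, 3 with |log2 fold change| over 1 and 0 to 21 with replicates left out. The cause of these changes was not tested.

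Whether the replicate numbers pair the mouse samples is not known. Same-numbered deviations had correlations of 0.281, 0.352 and −0.188, and those of other numbers lay between −0.436 and 0.284. With 3 replicates in each group these values cannot decide it. With the replicate block, edgeR called 819 genes at 0.01 and 2145 at 0.05, no member at 0.01, 3 members at 0.05 (Ier3 added) and 18 other pathway genes. No paired analysis was possible in human because no label links the numbered CON columns to the numbered DMSO samples. Scaling the mouse libraries to the NK cell list moved the median of all genes to −0.77, with 49 of 49 members below 0. Relative to that median 2 members changed sign, and since the test under this scaling is not relative to the median, no calls are given for it. Other scalings moved the median by less than 0.1.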
